A study of Mus musculus with 9 samples.

Results

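The genes of voltage-gated sodium channels, voltage-gated calcium channels and HCN channels were examined in the newborn mouse cortex with and without Fezf2, a transcription factor needed to specify the deep-layer projection neurons that send axons below the cortex. Members were all rows of the deposited table whose gene symbol is that of a sodium channel alpha or beta subunit (Scn), a calcium channel alpha1 (Cacna1), alpha2delta (Cacna2d), beta (Cacnb) or gamma (Cacng) subunit, or an HCN channel (Hcn). This gave 42 of the 24624 genes, namely 8 sodium channel alpha and 4 beta subunits, 10 calcium channel alpha1, 4 alpha2delta, 4 beta and 8 gamma subunits, and 4 HCN channels. Scn2a, listed under the older symbol Scn2a1, was not taken by this rule and is given only for reference. Scn4a was not analysed here.

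Poly(A) RNA from the cerebral cortex of single P0 pups was sequenced in 9 libraries. There were 4 libraries of Fezf2-/- pups, 3 of Fezf2+/+ pups and 2 of Fezf2-/- pups that carried Fezf2-EnR. The Fezf2 null allele carries a human placental alkaline phosphatase gene under the endogenous Fezf2 promoter. Fezf2-EnR is a BAC transgene, kept as a single line, in which the part of FEZF2 that binds DNA is joined to the repressor domain of engrailed, and both Fezf2-/-; Fezf2-EnR mice also lack functional Fezf2. All pups came from matings of Fezf2+/- with Fezf2+/-; Fezf2-EnR mice, and the labels name 3 litters. Litter m1 gave 2 Fezf2+/+ (bc201 and bc202) and 2 Fezf2-/- (bc205 and bc206) libraries, litter m2 gave 1 Fezf2+/+ (bc203) and 1 Fezf2-/-; Fezf2-EnR (bc209) library, and litter m3 gave 2 Fezf2-/- (bc204 and bc207) and 1 Fezf2-/-; Fezf2-EnR (bc208) library. Values below are normalized expression, that is, read counts divided by a size factor of the library. In each list of 9 values the libraries follow the order bc201 to bc209.

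Voltage-gated sodium channels carry the rising phase of the action potential. Their alpha subunit forms the pore, and beta subunits change its gating and its place in the membrane. Calcium channels couple depolarization to transmitter release, gene expression and rhythmic firing. Their alpha1 subunit forms the pore, while beta and alpha2delta subunits bring it to the membrane, and several gamma subunits serve instead as auxiliary subunits of AMPA-type glutamate receptors. HCN channels open on hyperpolarization and are gated by cyclic nucleotides, and in the mature cortex they are known for setting the resonance of the dendrites of deep-layer pyramidal neurons.

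The libraries held 18716575 to 25127623 recovered reads, and their normalized values summed to 20097781 to 21058156. Fezf2 was 1232, 1010 and 979 in Fezf2+/+ and 193 to 242 in Fezf2-/- (log2 fold change -2.30 ± 0.10 (SE), limma, Benjamini-Hochberg adjusted p = 1.38e-06). It was 907 and 1001 in Fezf2-/-; Fezf2-EnR, where reads of the transgene and of the remaining allele cannot be told apart. The summed markers of glutamatergic projection neurons, which define the labelled tissue, were 45492 to 56145 in the 9 libraries. In bulk tissue, fewer cells of a type and less RNA per cell cannot be told apart, and this holds for each difference below.

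Levels differed widely within the family. Of the 42 members, 34 had a mean of at least 10 over the 9 libraries and were tested among 16197 genes, and the least read tested member named here (Cacng1) had 347 reads in all 9 libraries together. The 8 others (Scn4b, Scn7a, Scn10a, Scn11a, Cacna1f, Cacna1s, Cacna2d4 and Cacng6) never exceeded a value of 12.9, or 13 reads, in any library and were not tested. They include the peripheral nociceptor channels Scn10a and Scn11a, the retinal Cacna1f and the skeletal muscle Cacna1s. Exons of 12 of the 42 overlap those of another gene in GENCODE M21, among them Hcn3 (711 bases of Pklr on the opposite strand), Cacna1a (435 bases of Gm16183 on the opposite strand) and Cacng8 (91 bases of Gm23450 on the same strand). Whether reads were counted by strand is not given in the sources used here, so values of these genes are uncertain to that extent. Per kilobase of exon in Fezf2+/+, the median tested member had a level of 121, beside 98.2 over all genes tested.

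Auxiliary subunits led the order of levels among the members. Per kilobase of exon, Cacng4, an AMPA receptor auxiliary subunit, had a level of 1825 ± 71.3 (SD, n = 3). It was followed by Scn3b, a sodium channel beta subunit, at 1204 ± 16.2, by Cacnb3 at 1009 ± 95.9 and by Cacng7 at 993 ± 36.0, and the libraries of the last pair overlapped. Cacna2d1, the most abundant alpha2delta subunit, reached a mean of 348 per kilobase and overlapped Cacnb1 at 376 ± 40.0.

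The pore-forming members were lower. The order leaves out Scn2a1, which averaged 6007 in Fezf2+/+ beside 2605 for Scn3a, as values not divided by exon length. Cacna1b, which forms the N-type channel of transmitter release, led the alpha1 subunits at 272 ± 17.7 per kilobase, above Cacna1h of the T type at 171 ± 2.38 and Cacna1a of the P/Q type at 116 ± 6.81. Among the sodium channel alpha subunits, the embryonic and neonatal form Scn3a had 209 ± 8.35 and Scn8a, the main form of mature nodes and initial segments, had 113 ± 6.88, while Scn1a, known from inhibitory neurons, had 36.8 ± 4.41. Scn9a, best known from sensory neurons, was at 11.2 ± 1.53. Among the HCN channels the libraries of Hcn4 (255 ± 9.07), Hcn2 (252 ± 6.01) and Hcn3 (231 ± 30.4) overlapped. In the order of all 34 levels, each gene from Cacng2 at rank 7 down to Hcn3 at rank 12 overlapped the next, so that these neighbours were not resolved from each other. Over the whole stretch the libraries of Cacng2, Cacna1b, Hcn4, Hcn2 and Cacng8 lay above those of Scn3a at rank 13.

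**Figure D1:**
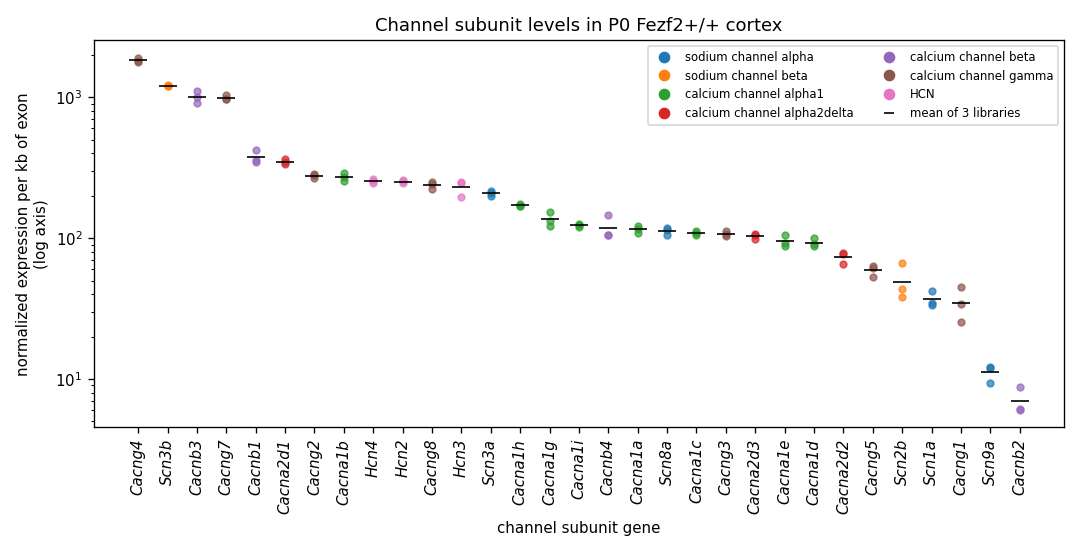
Normalized expression per kilobase of exon (log axis) of 31 of the 34 tested channel subunit genes in P0 Fezf2+/+ cortex, coloured by subunit class. Points are the 3 libraries and bars their mean, which runs from 1825 for Cacng4 to 7.01 for Cacnb2.

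Sequences of 2 sets of members are printed for reference, and no test used them. The first set is the 63-base coding stretch of 3 HCN genes around the selectivity filter of the pore, with the 3 filter codons in capitals. They are shown because Hcn2 had the smallest p in the comparisons with the transgene. The GC content used below is that of the longest transcript, which is 65.4% for Hcn2 and 58% for Hcn3 and for Hcn4. The coding sequences of Hcn2, Hcn3 and Hcn4 were 63.8%, 61.1% and 62.2% GC. All lie in exon 4 of the GENCODE M21 transcript (GRCm38), at chr10:79728932-79728994 on the plus strand for Hcn2, chr3:89150979-89151041 on the minus strand for Hcn3 and chr9:58855564-58855626 on the plus strand for Hcn4.
Hcn2: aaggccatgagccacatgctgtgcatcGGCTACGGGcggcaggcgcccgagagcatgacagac
Hcn3: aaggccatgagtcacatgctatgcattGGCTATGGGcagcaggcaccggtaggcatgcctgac
Hcn4: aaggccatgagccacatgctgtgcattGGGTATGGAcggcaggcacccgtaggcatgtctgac
Hcn2 and Hcn3 shared 51 of the 63 bases and 17 of the 21 encoded residues, and Hcn3 and Hcn4 shared 56 bases and 19 residues.

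The second set is the last 45 coding bases before the stop codon of 5 of the gamma subunits that act on AMPA receptors, with the last 4 codons in capitals. In Cacng2, Cacng3, Cacng4 and Cacng8 these codons encode a PDZ-binding end, through which the subunits bind postsynaptic scaffold proteins. They are shown because Cacng3 had the smallest p of the family in Fezf2-/- against Fezf2+/+. The stretches lie at chr15:77995152-77995196 on the minus strand (Cacng2), chr7:122768799-122768843 on the plus strand (Cacng3), chr11:107734783-107734827 on the minus strand (Cacng4), chr7:3415558-3415602 on the plus strand (Cacng8) and chr7:3366901-3366945 on the plus strand (Cacng7).
Cacng2: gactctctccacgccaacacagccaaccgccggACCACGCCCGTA
Cacng3: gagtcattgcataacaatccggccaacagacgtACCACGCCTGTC
Cacng4: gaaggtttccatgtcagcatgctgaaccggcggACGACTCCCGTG
Cacng8: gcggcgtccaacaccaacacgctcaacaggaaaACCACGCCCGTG
Cacng7: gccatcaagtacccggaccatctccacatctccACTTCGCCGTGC
The first 4 genes share all 4 last residues, whereas Cacng7 shares 2 of them with each. Cacng2 and Cacng3 were closest, with 12 of 15 residues of the stretch in common.

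The first comparison asked which channel genes differ in cortex that lacks Fezf2. None of the 34 tested members passed the test in Fezf2-/- against Fezf2+/+ (limma, adjusted p under 0.05), where 0.858% of all genes tested did, and the smallest adjusted p was 0.143. edgeR on recovered reads called 0 members (0.877% of all genes) and DESeq2 called 1, Cacng3 (1.94% of all genes). At an unadjusted p under 0.05 there were 3 members in limma, 8.82% of the 34 beside 10.8% of all genes. Log2 fold changes of the members named here ran from -0.16 (Cacnb3) to 0.56 (Cacng3). Of all 34, 24 were above and 10 below 0, with a median of 0.06 beside 0.00 over all genes. The 95% interval lay within a 2-fold change either way for 33 of the 34 members and within 1.5-fold for 28.

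**Figure D2:**
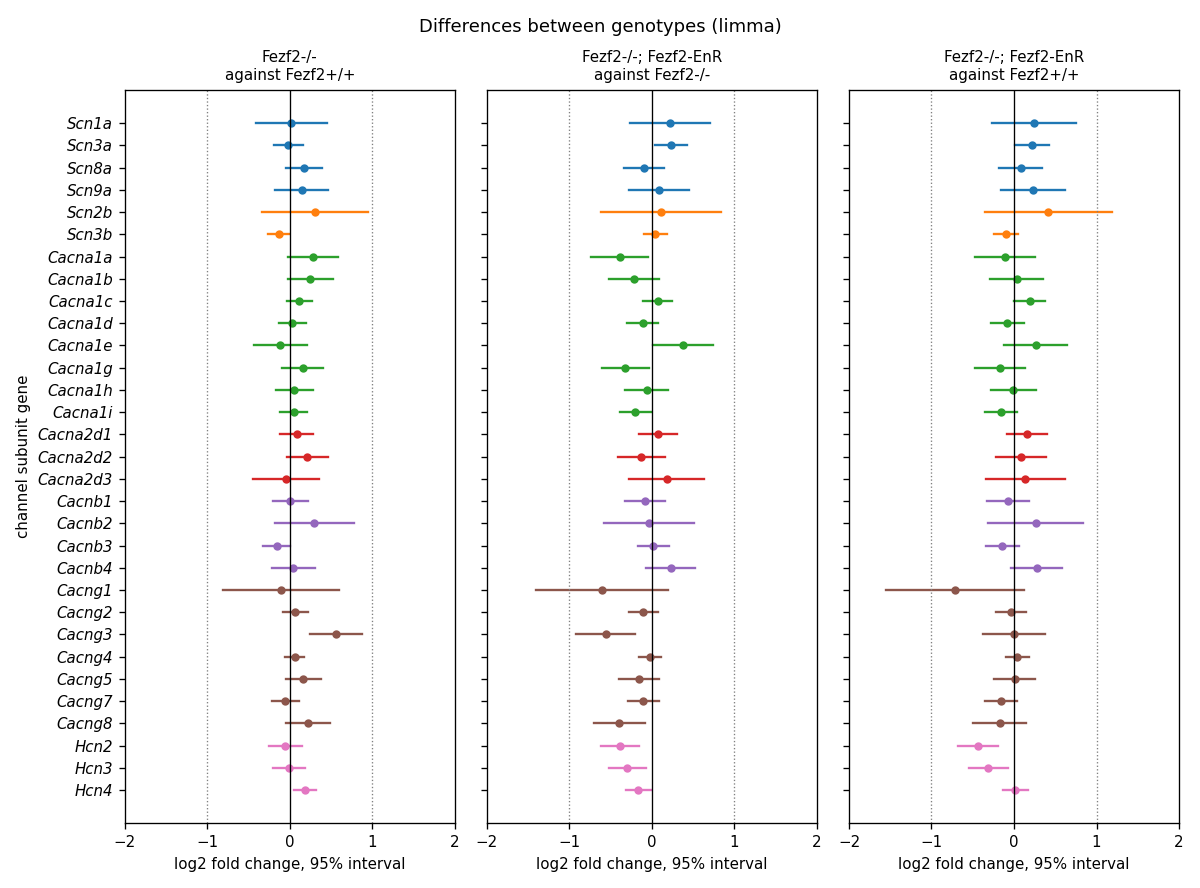
Log2 fold changes of 31 of the 34 tested members (points) with 95% intervals (lines) from limma in the 3 genotype comparisons, coloured by subunit class, with dotted lines at a 2-fold change. Most intervals cross 0 in Fezf2-/- against Fezf2+/+, and the points of the gamma and HCN genes shown lie below 0 in this fit for Fezf2-/-; Fezf2-EnR against Fezf2-/-.

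Cacng3 had the smallest p of the family in this comparison. Its values were 289, 296 and 313 in Fezf2+/+, 472, 434, 384 and 485 in Fezf2-/-, and 375 and 238 in Fezf2-/-; Fezf2-EnR. All 4 Fezf2-/- libraries lay above all 3 Fezf2+/+ libraries, and the Fezf2-/-; Fezf2-EnR libraries lay on either side of the Fezf2+/+ range. The fold change in Fezf2-/- against Fezf2+/+ was 1.48 (95% interval 1.19 to 1.84), or 0.56 ± 0.14 (SE) on the log2 scale, with an adjusted p = 0.143 in limma and 0.0153 in DESeq2. It passed in limma when only these genotypes were fitted (adjusted p = 0.0241), and in the 3-genotype fit without bc208 (0.0261) or without bc209 (0.0246), where 1.36%, 1.32% and 1.34% of all genes were called. With litter as a block the log2 fold change was 0.36 (adjusted p = 0.254), and within litter m1 alone it was 0.48 (adjusted p = 0.0628). The call therefore rested on the choice of fit.

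The libraries of Fezf2-/- and Fezf2+/+ did not overlap for 7 members, Cacng3 among them. Higher in every Fezf2-/- library were 6 members, 17.6% of the 34 beside 6.53% of all genes, and lower was 1 member, 2.94% beside 6.46% of all genes. None of the 7 passed the limma test after adjustment, and only Cacng3, Hcn4 and Scn3b had an unadjusted p under 0.05.

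Cacng8, the gamma subunit best known from hippocampal AMPA receptors, had 525, 570.2 and 588 in Fezf2+/+ and 667, 631, 621 and 698 in Fezf2-/- (log2 fold change 0.22, 95% interval -0.05 to 0.49), and 0.06 with litter as a block. Cacna1a had 1395, 1239 and 1322 in Fezf2+/+ and 1495, 1493, 1524 and 1934 in Fezf2-/- (0.28, -0.02 to 0.58). Its log2 fold change was 0.10 with litter as a block, 0.19 without bc207 and 0.19 with trends in GC content and transcript length removed from each library. Hcn4, an HCN channel best known from the sinus node and thalamus, had 1617, 1561 and 1506 in Fezf2+/+ and 1809.8, 1812, 1716 and 1746 in Fezf2-/- (0.18, 0.05 to 0.31, limma adjusted p = 0.277), and 0.11 with these trends removed.

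Scn8a had 1811, 1653 and 1860.1 in Fezf2+/+ and 1913, 1874, 1919 and 2316 in Fezf2-/- (0.17, -0.04 to 0.39). That value was 0.07 with litter as a block, 0.10 without bc207 and 0.05 with GC and length trends removed. Scn3b went the other way, with 6513, 6530.2 and 6674 in Fezf2+/+ and 5862, 5755, 5836 and 6490.3 in Fezf2-/- (-0.14, -0.26 to -0.01, limma adjusted p = 0.403). In bc207 Scn3b was just below the lowest Fezf2+/+ library, whereas the other Fezf2-/- libraries lay close together.

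**Figure D3:**
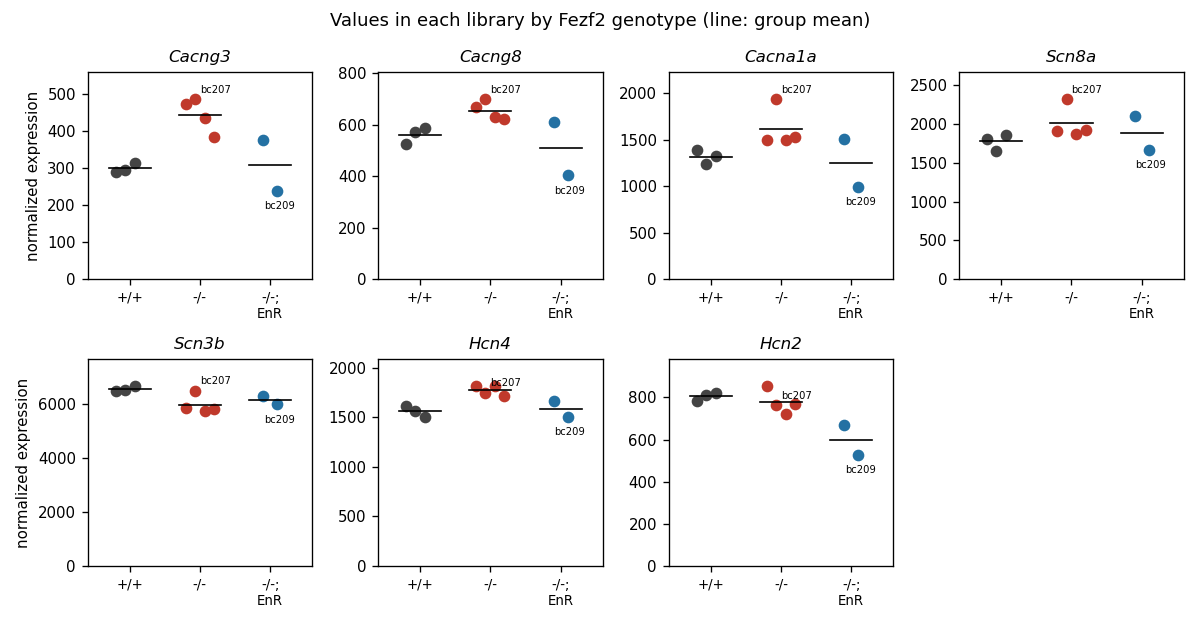
Normalized expression (axes from 0) of 6 of the 7 members whose Fezf2-/- and Fezf2+/+ libraries did not overlap, and of Hcn2. Points are libraries, lines are group means, and bc207 and bc209 are named; bc209 is the lowest library for Cacng3, Cacng8, Cacna1a, Hcn4 and Hcn2.

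The summed markers of GABAergic interneurons also did not overlap between Fezf2+/+ and Fezf2-/-. They were 8793 to 9216 in Fezf2+/+, 11580 to 12354 in Fezf2-/- and 8891 to 10039 in Fezf2-/-; Fezf2-EnR. None of the 9 genes passed after adjustment in limma. In Fezf2-/- against Fezf2+/+, 8 of them had an unadjusted p under 0.05, beside 10.8% of all genes tested. In Fezf2-/-; Fezf2-EnR against Fezf2+/+, 3 of the 9 did, beside 19.3% of all genes. These were Gad2, Dlx5 and Dlx2, all higher with the transgene (log2 fold changes 0.55, 0.67 and 0.28). The summed thalamic, oligodendrocyte precursor and muscle markers also had no overlap between Fezf2+/+ and Fezf2-/-, with values given at the end. The thalamic sum came mostly from Prox1 and Rora. Taken singly, Prox1, Rora and Tcf7l2 overlapped between these genotypes, and Lhx9 did not (3.16 to 7.36 in Fezf2+/+ and 9.81 to 18.3 in Fezf2-/-). No thalamic gene was called. Slc17a6, a vesicular glutamate transporter of many subcortical and newborn neurons, was called higher in Fezf2-/- (log2 fold change 0.59, limma adjusted p = 0.0367). The part of these markers in the channel values was not tested.

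Of the members with the highest level per kilobase in their class (alpha2delta and gamma as 1 class), Hcn4 and Scn3b are described above. The others, Cacna1b, Cacnb3, Cacng4 and Scn3a, had a limma unadjusted p above 0.05 in Fezf2-/- against Fezf2+/+. Cacna1b averaged 2705 ± 176 (SD) over the 3 Fezf2+/+ libraries and 3253 ± 615 over the 4 of Fezf2-/-, where bc205 alone reached 4061. Its log2 fold change was 0.25 (95% interval -0.02 to 0.52), 0.14 without bc205 and 0.13 with GC and length trends removed. Cacnb3 had 4045 ± 385 and 3617 ± 194 (-0.16, -0.33 to 0.01), and -0.09 without bc203. Cacng4 had 6523 ± 255 and 6795 ± 291 (0.06, -0.06 to 0.18, from 0.04 without bc202 to 0.09 without bc203), and Scn3a had 2605 ± 104 and 2579 ± 239 (-0.02, -0.19 to 0.15). Scn2a1, outside the rule, had 6007 ± 412 and 5504 ± 731 (-0.13, limma adjusted p = 0.671).

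The second comparison asked whether the repressor fusion moves these genes in cortex without Fezf2. No member passed in Fezf2-/-; Fezf2-EnR against Fezf2-/- in limma (0.766% of all genes) or in edgeR (0.704% of all genes), and DESeq2 called Hcn2 alone (2.78% of all genes). The smallest limma adjusted p was 0.131. At an unadjusted p under 0.05 there were 11 members, 32.4% of the 34 beside 16.9% of all genes, 9 of them lower and 2 higher, beside 9.06% and 7.87% of all genes. Among the lower ones were Hcn2, Hcn3, Hcn4, Cacng3, Cacng8, Cacna1a, Cacna1g and Cacna1i, and the higher ones were Scn3a and Cacna1e. Hcn2, Hcn3, Hcn4 and all 7 tested gamma subunits had log2 fold changes below 0, with a median of -0.16 for the gamma subunits, beside -0.10 over the 34 members and 0.00 over all genes. With GC and length trends removed, Cacng4 (0.03) and Cacng7 (0.04) lay above 0.

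The third comparison set Fezf2-/-; Fezf2-EnR against Fezf2+/+ and shares its libraries with the others. No member passed in limma (0.117% of all genes) or in edgeR (0.0926% of all genes), and DESeq2 again called Hcn2 alone (3.96% of all genes). At an unadjusted p under 0.05, Hcn2 and Hcn3 were lower and Scn3a and Cacna1c higher, 11.8% of the 34 beside 19.3% of all genes. The median log2 fold change was 0.00, from -0.71 (Cacng1) to 0.41 (Scn2b).

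Hcn2 was the member with the smallest p in both comparisons with the transgene. It is outside the rule for named genes and was chosen after its values were seen. Its values were 783, 811 and 819.9 in Fezf2+/+, 854, 721, 769 and 762 in Fezf2-/-, and 669 and 527 in Fezf2-/-; Fezf2-EnR, so that both transgenic libraries lay below the other 7. The log2 fold change was -0.38 ± 0.10 (SE) against Fezf2-/- (limma adjusted p = 0.131, DESeq2 0.0454) and -0.44 ± 0.11 against Fezf2+/+ (limma adjusted p = 0.119, DESeq2 0.0191). Mean values of Hcn3 were 961 ± 126 (SD) in the 3 Fezf2+/+, 946 ± 22.8 in the 4 Fezf2-/- and 771 ± 47.3 in the 2 transgenic libraries, with a log2 fold change of -0.30 against Fezf2-/- (limma adjusted p = 0.194).

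The transgenic libraries differed from each other, and bc209 stood apart. It was the lowest of the 9 libraries for 16 of the 34 members (47.1%), beside 21.3% of all genes tested. Across the 34 members, its deviation from the other libraries fell with the GC content of the transcript (Pearson r = -0.563, Spearman rho = -0.664), and across all genes r was -0.288. These points share a library and are not independent replicates. The median deviation of bc209 was 0.16 among all genes of at most 44.8% GC and -0.16 among those of at least 54.4%, on the log2 scale, and in bc208 it was 0.02 and 0.00. The members named here range from 39.0% to 65.4% GC, and the 2 richest, Hcn2 and Cacng8, were among those lower in bc209.

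**Figure D4:**
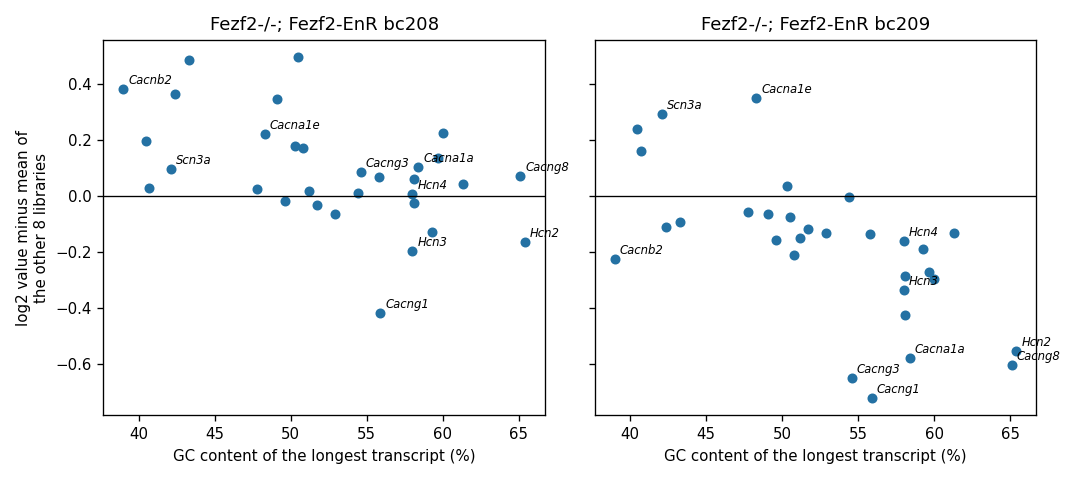
Deviation of 31 of the 34 tested members from the mean of the other 8 libraries (log2 scale) in bc208 and bc209 against the GC content of their longest transcript (%). In bc209 (right) most members above 54.4% GC lie below 0 (Pearson r = -0.563 over 34 members), and bc208 (left) shows a smaller slope (r = -0.194).

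The calls against Fezf2-/- turned on which transgenic library was kept. Without bc208, limma called 5 members lower, among them Cacng3, Cacng8, Hcn2 and Cacna1a, beside 4.19% of all genes called lower, and against Fezf2+/+ it called 2 lower, among them Hcn2, beside 1.76%, with bc209 alone assumed to vary like the other groups. Without bc209 it called 0 in both, where 0.13% and 0.0494% of all genes were called in either direction. Cacng3 had a log2 fold change against Fezf2-/- of -0.89 without bc208 and -0.23 without bc209, and -0.56 (95% interval -0.92 to -0.20) with both. Hcn2 had -0.56 and -0.21, Cacng8 had -0.70 and -0.10, and Cacna1a had -0.69 and -0.09. Against Fezf2+/+, Hcn2 had -0.61 without bc208 and -0.27 without bc209. With trends in GC content and transcript length taken out of each library, Hcn2 had -0.25 (limma adjusted p = 0.186), Cacng8 -0.22 and Scn3a 0.03, where it had been 0.23. With litter as a block, Hcn2 had -0.36 (adjusted p = 0.152).

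For Scn2b and Scn1a the litters differed beyond the spread between libraries. This comparison, of litter m3 with m1 in the fit with genotype and litter, was added after the data were seen, and the litter cannot be told apart from whatever else its pups shared, and nothing in the labels separates these. It called 3 of the 34 members (8.82%), beside 4.13% of all genes tested, and 4 (11.8%) beside 6.12% after removal of GC and length trends, Cacng1 being called only then. Cacng1 was lower in m3, with a log2 difference of -0.84 after that removal. Scn2b and Scn1a are outside the rule for named genes and were chosen after their values were seen.

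Scn2b, a beta subunit whose level is known to rise as the brain matures, had 202, 178, 308, 366, 179, 217, 404, 354 and 249 in bc201 to bc209. The m1 libraries averaged 194 ± 19.0 (SD, n = 4) and the m3 libraries 375 ± 25.8 (SD, n = 3), without overlap, and both m2 libraries lay between them. The log2 difference was 1.01 ± 0.12 (SE), with a limma adjusted p = 0.00332. Scn1a, another subunit known to rise after birth, had 358 ± 32.6 in m1 and 536 ± 39.7 in m3 (0.67 ± 0.09, limma adjusted p = 0.00689). The log2 difference of Scn3a, the embryonic and neonatal form, was 0.04 ± 0.08 (SE). Whether the litters differed in maturity was not tested. For Scn2b the Fezf2+/+ and Fezf2-/- libraries of m1 overlapped, and in m3 bc208 was just below both Fezf2-/- libraries. For Scn1a the m1 libraries of Fezf2+/+ (389 and 376) lay above those of Fezf2-/- (315 and 352). In m3 bc208 (576) lay above both Fezf2-/- libraries (497 and 534) for Scn1a. In Fezf2-/- against Fezf2+/+ the log2 fold change of Scn2b was 0.30 (95% interval -0.34 to 0.95) without the block and 0.00 with it, and that of Scn1a 0.02 and -0.24.

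**Figure D5:**
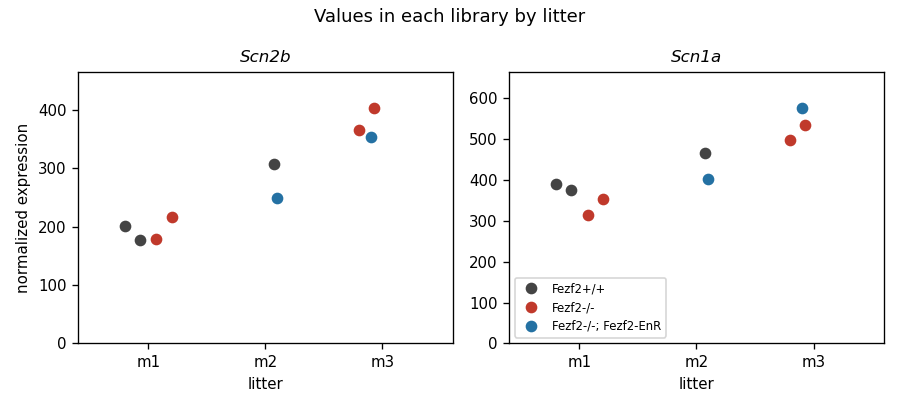
Normalized expression (axes from 0) of Scn2b and Scn1a by litter, coloured by genotype, with 1 point per library. The m3 libraries of Scn2b average 375 and those of m1 194, and the 2 litters do not overlap for either gene.

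Summed markers of radial glia and astrocytes were 15547 to 17152 in the 4 m1 libraries and 17286 to 18539 in the 3 m3 libraries, also without overlap, and their part in these differences was not tested. Across the 34 members, 10 (29.4%) had every m3 library above every m1 library, beside 13.8% of all genes tested, and 2 (5.88%) had every one below, beside 12.4%. Neither these counts nor the marker sums take account of genotype. Litter m3 held no Fezf2+/+ library and m1 no Fezf2-/-; Fezf2-EnR library, so genotype and litter are mixed in them.

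The proteins that bind or regulate these channels gave 1 call. None of the 14 tested sodium channel partners (ankyrins, FGF homologous factors, the NALCN complex and others) was called in any comparison by limma. In the order given above, 2, 2 and 3 of them had an unadjusted p under 0.05, beside 10.8%, 16.9% and 19.3% of all genes. Their medians lay between -0.02 and 0.10 (log2). Of 11 tested calcium channel partners, Stac2, an adaptor that slows inactivation of L-type channels, was lower in Fezf2-/-. It had 811, 829 and 630.2 in Fezf2+/+, 367, 430.4, 457 and 341 in Fezf2-/-, and 551 and 582 in Fezf2-/-; Fezf2-EnR. Relative to Fezf2+/+ its log2 fold change was -0.92 ± 0.12 (SE, limma adjusted p = 0.00539), and Fezf2-/-; Fezf2-EnR lay between the others.

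An unadjusted p under 0.05 was found for 6, 7 and 5 of the 11 calcium channel partners in the 3 comparisons, beside 10.8%, 16.9% and 19.3% of all genes. In Fezf2-/- against Fezf2+/+ these were Rem2, Rims1, Rimbp2 and Stac, with higher values in Fezf2-/-, and Stac2 and Cabp1, with lower ones. In Fezf2-/-; Fezf2-EnR against Fezf2-/- the values of Cbarp, Rimbp2, Rims3, Stac and Rem2 were lower and those of Stac2 and Rims2 higher. Cbarp, a regulator of calcium channel beta subunits, had the smallest p there (-0.48 ± 0.11, limma adjusted p = 0.0793), with 3440, 3620, 3404 and 3330 in Fezf2-/- and 2873 and 2135 with the transgene. Rimbp2, a presynaptic protein that links RIM proteins to calcium channels, had a log2 fold change of -0.47, Rims3 had -0.40, Stac had -1.11 and Rims2 had 0.45. The library bc209 was the lowest of the 9 for Cbarp, Rimbp2, Rims3 and Stac and the highest for Rims2. In Fezf2-/-; Fezf2-EnR against Fezf2+/+ the values of Stac2, Cbarp, Rims3 and Cabp1 were lower and those of Rims2 higher.

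Pex5l, the only tested HCN partner and an auxiliary subunit that controls the surface number of HCN channels, had 389 to 465 in Fezf2+/+, 249 to 339 in Fezf2-/- and 414 and 296 with the transgene (-0.61 in Fezf2-/- against Fezf2+/+, limma adjusted p = 0.093).

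Other cell types were read from their summed markers in Fezf2+/+, Fezf2-/- and Fezf2-/-; Fezf2-EnR. Striatal projection neuron markers were 1563 to 1789, 1032 to 3472 and 1273 to 2572. They were highest in bc204 (3472) and next in bc208 (2572), both of litter m3, and lowest in bc207 (1032) of the same litter. Thalamic markers were 962 to 993, 1119 to 1324 and 1057 to 1154, and those of oligodendrocyte precursors were 4849 to 5148, 5512 to 5780 and 5391 to 5411. Endothelial and mural markers (3782 to 5423), meningeal fibroblast markers (113 to 294), microglial markers (670 to 813) and muscle markers (96 to 157) overlapped between Fezf2+/+ and Fezf2-/- except for muscle (101 to 123 and 132 to 157). Only Lum, a fibroblast gene at 1.04 to 24.9, was called in these lists besides Slc17a6. Radial glia and astrocyte markers were 14701 to 15820, 15728 to 18539 and 17431 to 18426.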

How the data were processed

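Poly(A) RNA of 9 P0 mouse cortices, each from 1 mouse, was analysed. The values the authors deposited are a normalized signal for 24624 genes, namely read counts divided by a size factor of each library and printed to 2 decimals. The submitters' processing notes name Bowtie, STAR, DESeq and the build mm10. The counting tool, annotation release and use of strand are not given in the sources used here. The labels and the methods name different sequencers. Whole reads were recovered in all 9 libraries, where 100.0% of values between 20 and 200 lay close to an integer number of reads. The tolerance was wider than rounding to the printed decimals. Depth is therefore 18716575 to 25127623 reads per library, and the precision of a member follows from its reads and the spread between mice.

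log2(value + 1) was tested with limma 3.58.1 in R 4.3.3, with 1 coefficient per genotype and no covariate, for the 16197 genes whose mean over the libraries reached 10. Fold changes are on that log scale, which understates the change of low genes. Benjamini-Hochberg adjusted p under 0.05 was called over all genes tested. The unit is normalized values rather than counts, so edgeR 4.0.16 and DESeq2 1.42.0 were run as alternatives on the recovered reads, along with litter as a block, each library left out in turn, other pseudocounts, filters and scalings, only the groups compared and litter m1 alone. GC and length removal and the comparison of litters were added after the data were seen. The 2 Fezf2-/-; Fezf2-EnR libraries rest on a spread shared by all genotypes. GENCODE M21 (GRCm38, as mm10) gave lengths, GC content, coordinates and coding sequence. All 42 members and 24595 of 24624 genes matched it. The fits were tested on simulated data with planted changes of at least 2-fold and without effects of litter or GC content. That check does not cover smaller changes, which most members had here.

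Values and tests are given for members called in any comparison, members whose Fezf2-/- and Fezf2+/+ libraries do not overlap and the member with the highest level per kilobase in each class (alpha2delta and gamma as 1 class). Hcn2, Scn1a and Scn2b were added after their values were seen. The members, the partner and marker lists and the rules were chosen with earlier results of these data known. A few members enter the fits and counts but are not reported here by name. The lists cover sodium channel, calcium channel and HCN partners, glutamatergic projection neurons, GABAergic interneurons, striatal, thalamic, oligodendrocyte precursor, endothelial and mural, meningeal, muscle, radial glia and astrocyte, and microglial markers.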

Additional observations from a re-analysis of the deposited data

Results flagged for a closer look

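In the 4 Fezf2-/- libraries, 4 of the 34 tested members had 1 library far from the other 3 by Dixon's ratio, the gap to the nearest library over the whole range. The library was bc207 each time. The ratio was 0.985 for Cacna1g, 0.929 for Cacna1a, 0.898 for Scn8a and 0.855 for Scn3b, and bc207 was the highest of the group for all of them. By chance about 1 group in 20 is marked this way, and the 34 groups share libraries. bc207 was the highest of the 9 libraries for 12 of the 34 members (35.3%), beside 13.0% of all genes tested, and the Pearson correlation of its deviation with GC content across the members was 0.06. Without bc207 the log2 fold change of Cacna1a in Fezf2-/- against Fezf2+/+ was 0.19, that of Scn8a 0.10 and that of Scn3b -0.18. No call changed.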

How the results depend on the processing

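In Fezf2-/- against Fezf2+/+, limma called 0 members, and 1 when only these genotypes were fitted, 1 with DESeq2, 3 at an unadjusted p under 0.05 and 0 to 1 with a library left out. In Fezf2-/-; Fezf2-EnR against Fezf2-/- it called 0, and 1 with DESeq2, 11 unadjusted and 0 to 5 with a library left out. Against Fezf2+/+ it called 0, and 1 with DESeq2, 4 unadjusted and 0 to 2 with a library left out. The other alternatives, including litter as a block, which changed no call of a member, gave 0 in each. Litter m3 against m1 gave 3, and 4 with GC and length trends removed. Of 671 log2 fold changes of the 11 members described under an alternative, 629 kept their direction and side of the threshold, 11 passed it and 31 changed sign, with no call in any of these 31, and the cause was not tested. With litter as a block these were Scn3a in Fezf2-/- against Fezf2+/+ (0.0072), Cacnb3 in Fezf2-/-; Fezf2-EnR against Fezf2-/- (-0.0439) and, against Fezf2+/+, Cacng3 (-0.16), Cacng4 (-0.0213) and Scn8a (-0.0298). With GC and length trends removed these were Cacng4 against Fezf2-/- (0.0261) and, against Fezf2+/+, Cacna1b (-0.17), Cacnb3 (0.002), Cacng8 (0.0197), Scn3a (-0.0938) and Scn8a (-0.14). Cacng3 against Fezf2+/+, at 0.0001, became 0 with a pseudocount of 0.1 and -0.0019 under both TMM and median-ratio scaling. With a library left out, values crossed 0 for Scn3a in Fezf2-/- against Fezf2+/+ (-0.0761 to 0.018). In Fezf2-/-; Fezf2-EnR against Fezf2-/- they did for Cacnb3 (-0.0608 to 0.0969), Cacng4 (-0.047 to 0.002) and Scn8a (-0.26 to 0.0764). Against Fezf2+/+ they did for Cacna1a (-0.41 to 0.19), Cacna1b (-0.0162 to 0.0777), Cacng3 (-0.33 to 0.33), Cacng8 (-0.47 to 0.12), Hcn4 (-0.0571 to 0.092) and Scn8a (-0.091 to 0.25), with the extremes mostly without bc208 or bc209.

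With 2 Fezf2-/-; Fezf2-EnR libraries, 1 of them deviating with GC content, the 95% interval against Fezf2-/- lay within a 1.5-fold change for 22 of the 34 members and within 2-fold for 32. The least read members, such as Cacng1, are limited by their reads.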
